A study of Mus musculus with 10 samples.

Results

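Transcripts of 9 amino acid transporter genes (Slc1a5, Slc7a5, Slc3a2, Slc38a1, Slc38a2, Slc7a11, Slc7a6, Slc7a7 and Slc7a8) were followed in mouse peritoneal cavity macrophages. The genes were taken by symbol from the 22165 genes of the count table, and all 9 had enough reads to be tested. The cells came from C57BL/6 mice in which a gene was flanked by loxP sites (floxed). The term wild type stands for floxed mice without a recombinase. The term knockout stands for floxed mice with LysM-Cre, a recombinase driven by the Lyz2 locus of myeloid cells, so the floxed gene was common to both genotypes. Mice received saline (basal) or interleukin-4 bound to an antibody against it, which prolongs its action, by intraperitoneal injection. The peritoneal cavity was rinsed with 5 ml of PBS 36 hours later, the cells were stained for CD64, ICAM-2 and CD115 and sorted, and polyadenylated RNA was sequenced. There were 2 wild-type basal, 2 knockout basal, 3 wild-type IL-4 and 3 knockout IL-4 libraries, referred to by their replicate numbers. The labels do not say whether libraries of a group came from separate mice, so the p-values measure only the spread between these samples.

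Amino acid transporters of the plasma membrane differ in substrates and in the direction in which they carry them. SLC1A5 (ASCT2) exchanges neutral amino acids and takes up glutamine, while SLC38A1 and SLC38A2 bring in small neutral amino acids together with sodium. SLC3A2, the heavy chain of CD98, carries no amino acid itself and holds light chains at the cell surface. The light chains SLC7A5 (LAT1) and SLC7A8 (LAT2) exchange large neutral amino acids, SLC7A6 and SLC7A7 exchange cationic against neutral ones, and SLC7A11 (xCT) imports cystine in return for glutamate. In macrophages, cystine uptake supplies cysteine for glutathione, and Slc7a11 and Slc38a2 are known targets of the transcription factor ATF4, which acts when amino acids are scarce.

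Promoter sequences from RefSeq (build GRCm38.p6) were on hand for 6 of the 9 genes, as windows from 250 bases before to 50 bases after a transcript start. None was on hand for Slc1a5, Slc7a5 or Slc38a1, so these were not searched. Those of Slc7a11, Slc3a2 and Slc38a2 are shown because the transcripts of these 3 genes differed between conditions when averaged over the other factor. Each is on the minus strand of the reference and is written 5′ to 3′ along the gene, at chr3:50443564-50443863 for Slc7a11, chr19:8713848-8714147 for Slc3a2 and chr15:96699679-96699978 for Slc38a2. Capitals mark matches on either strand to TGATGNAA, the core of elements bound by ATF4 with C/EBP partners, or to TGACNNNGC, the core of the antioxidant response element bound by NRF2.
Slc7a11: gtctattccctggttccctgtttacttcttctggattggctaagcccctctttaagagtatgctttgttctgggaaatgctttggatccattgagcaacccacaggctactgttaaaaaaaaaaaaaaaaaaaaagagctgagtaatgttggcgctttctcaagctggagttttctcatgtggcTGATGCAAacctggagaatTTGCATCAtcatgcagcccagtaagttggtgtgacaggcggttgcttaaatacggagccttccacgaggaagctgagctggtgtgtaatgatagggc
Slc3a2: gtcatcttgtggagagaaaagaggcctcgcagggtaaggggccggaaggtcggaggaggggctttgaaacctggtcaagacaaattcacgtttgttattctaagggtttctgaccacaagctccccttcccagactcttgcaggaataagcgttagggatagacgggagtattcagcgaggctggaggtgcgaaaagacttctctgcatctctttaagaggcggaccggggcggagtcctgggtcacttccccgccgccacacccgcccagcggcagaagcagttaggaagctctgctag
Slc38a2: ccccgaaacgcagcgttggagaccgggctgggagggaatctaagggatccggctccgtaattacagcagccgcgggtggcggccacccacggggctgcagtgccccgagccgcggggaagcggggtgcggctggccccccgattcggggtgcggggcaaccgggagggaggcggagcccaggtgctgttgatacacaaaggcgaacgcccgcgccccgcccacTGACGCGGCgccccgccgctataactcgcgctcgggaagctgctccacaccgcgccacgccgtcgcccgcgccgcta
The Slc7a11 window held TGATGNAA at bases 185 to 192 and, on the opposite strand, at bases 204 to 211. The Slc38a2 window held TGACNNNGC at bases 224 to 232, and the Slc3a2 window held neither. That Slc3a2 window lies inside the annotated span of the gene (chr19:8706882-8723369), so the outer 5′ end of that span was not searched. Matches were not limited to these genes: TGATGNAA also stood in 2 of the 5 windows of Slc7a7, and TGACNNNGC in both windows of Slc7a6, neither of which passed a test in the comparisons below. Some windows of the same gene overlap, so windows are not independent. The match in both Slc7a6 windows is the same site, and 1 Slc7a7 site was counted in 2 windows. Among 32817 mouse promoter windows of 300 bases, 3.97% held TGATGNAA and 12.4% held TGACNNNGC. A further search, for TTC and GAA with 4 bases between them as bound by STAT6, which IL-4 activates, found a match in 6.945% of all windows and in none of the 11 windows of these transporters. The motifs do not overlap one another in these windows, and a match or its lack describes the letters of the window only.

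Libraries held 8762403 to 15024073 counts. All 10 macrophage markers were detected in every group, but their levels differed. Their sum without Lyz2 was 6360 and 7610 CPM (the count of genes relative to the TMM-scaled library) in the wild-type basal libraries, 5230 and 5370 CPM in the knockout basal libraries and 4940 to 5330 CPM after IL-4. Lyz2 itself was 21900 and 23600 CPM in the wild-type basal libraries, 2664 and 9675 CPM in the knockout basal libraries and 2845 to 7046 CPM after IL-4. In the wild type 3 of the 10 fell with IL-4 and 1 rose, against 2.8% and 3.26% of all genes tested. The 3 were Lyz2 and Fcgr1 and Icam2, which encode the sort markers CD64 and ICAM-2. The 1 that rose was Mertk. Csf1r, which encodes the sort marker CD115, did not pass there. Its means were 269 and 293 CPM in the wild-type and knockout basal groups and 301 and 311 CPM after IL-4. The IL-4 response genes Arg1 and Retnla rose in both genotypes. Markers of other cells also differed: the sum of 15 B cell markers, none of them at 0 in any group, was 1880 and 2150 CPM in the knockout basal libraries, 534 and 613 in the wild-type basal libraries, 729 to 791 in the wild-type IL-4 libraries and 659 to 801 in the knockout IL-4 libraries. Of these markers 13 rose in the knockout at baseline, against 2.61% of all genes tested. With IL-4 in the knockout 14 fell, against 3.51% of all genes. The summed T and NK cell markers (103 to 106 CPM), eosinophil markers (35.7 to 46.0 CPM, 4 of 7 at 0) and mast cell and basophil markers (186 to 313 CPM) were also higher in the knockout basal libraries than in every other library, where they reached 40.4, 17.6 and 132 CPM. The T and NK sum rested mostly on Cd2 (mean 83.4 CPM in the knockout basal group, with Cd3e at 0.671) and the eosinophil sum on Il5ra (34.9 CPM). Fewer cells of a type and less RNA per cell cannot be told apart in such samples.

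Slc7a11 was near 0 counts without IL-4 and detected in every library with it, and it was tested only because of its IL-4 libraries. Averaged over genotypes IL-4 raised Slc3a2 1.6-fold. Slc1a5 was 2.33-fold higher in the knockout at baseline and fell 2.66-fold with IL-4 in the knockout, so that its response to IL-4 differed between the genotypes. Slc38a2 was 1.85-fold higher in the knockout when both treatments were averaged, and Slc38a1 stayed close to the same level in all groups. No transporter passed the test between the genotypes after IL-4. The values behind these statements are plotted for each library and as fitted differences.

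**Figure D1:**
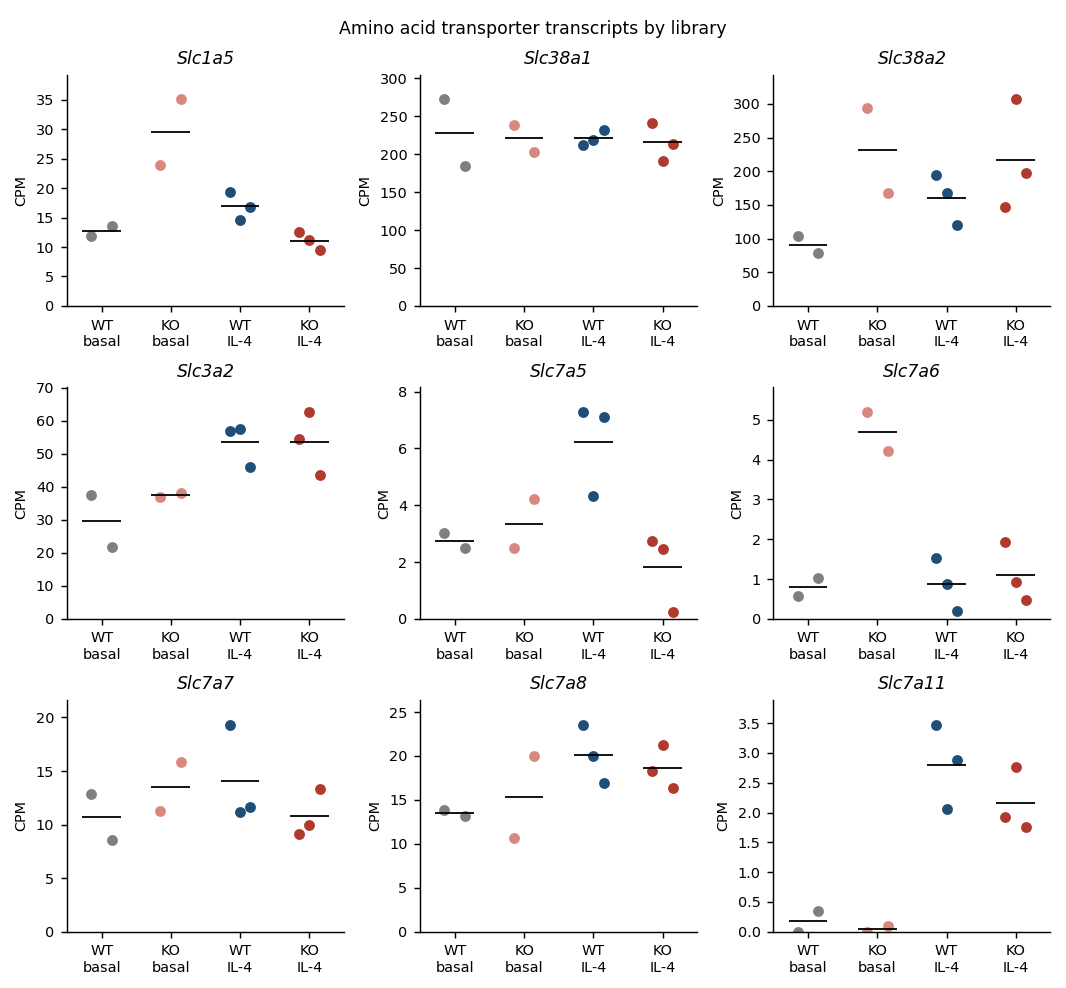
Transcript level of each of the 9 transporters in CPM (vertical axes, from 0), with 1 point per library, 2 or 3 per group, and a line at the group mean. Slc7a11 lies between 0 and 0.343 CPM in the basal libraries and between 1.76 and 3.47 CPM after IL-4, and Slc1a5 is highest in the knockout basal libraries, at 23.9 and 35.1 CPM.

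**Figure D2:**
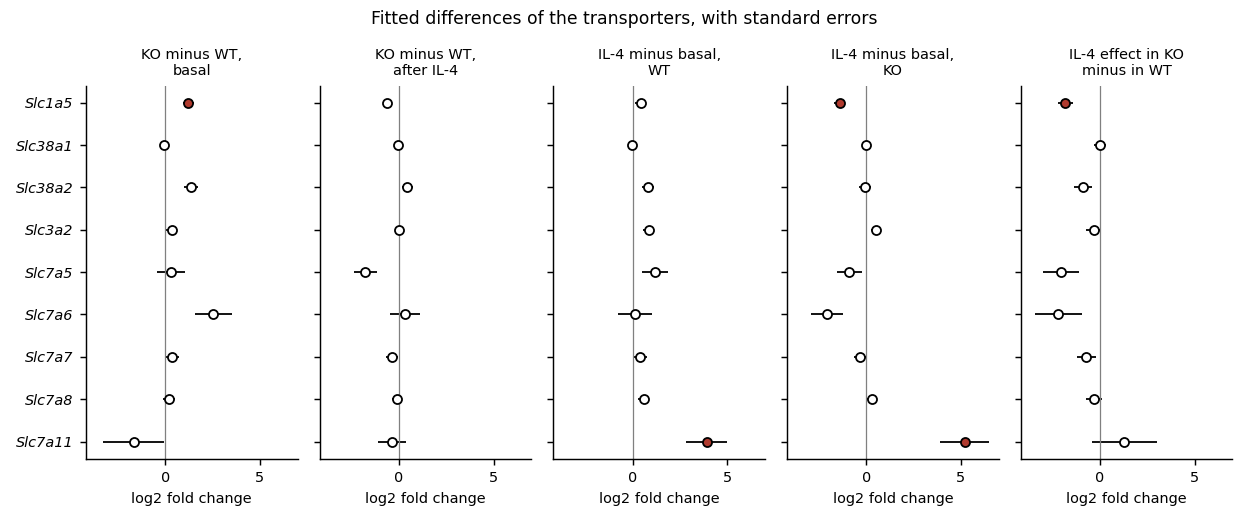
Fitted log2 fold changes (horizontal axes) of the 9 transporters in 5 comparisons, with bars for 1 standard error and filled points where the adjusted p of edgeR's quasi-likelihood test was under 0.05. Filled points are Slc1a5 in 3 panels and Slc7a11 in the 2 panels for IL-4, and all points of Slc38a1 lie between -0.05 and 0.01.

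In numbers, 1 of 9 transporters rose and 0 fell with IL-4 in the wild type, where 6.06% of the 11614 genes tested passed (3.26% higher and 2.8% lower). The 1 was Slc7a11, as was the 1 that rose in the knockout, and it entered the test only through its IL-4 libraries, so nothing is read from these counts. The median of their log2 changes was 0.57, against 4.05e-05 for all genes. Of the 9, 6 had every IL-4 library above every basal library and 0 had every one below, as 20.8% and 19.5% of all genes did. Slc7a11 was 1 of these 6, with its direction fixed by the filter. With IL-4 in the knockout, 1 rose and 1 fell, against 7.6% of all genes (4.09% higher and 3.51% lower), and the median was -0.09 against -0.00173. There 2 lay wholly above and 2 wholly below the basal libraries, against 18.4% and 21.2% of all genes. Slc7a11 was again 1 of those above.

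Between the genotypes at baseline 1 of 9 was higher and 0 lower in the knockout, against 4.14% of all genes (2.61% higher and 1.53% lower), with a median of 0.34 against -0.02. Of the 9, 3 lay wholly above and 0 wholly below the wild type, against 23.7% and 24.5% of all genes. After IL-4, edgeR called 0 of 9 between the genotypes, where 0.827% of all genes passed (0.353% higher and 0.474% lower). In that comparison 2 of 9 had an unadjusted p under 0.05, DESeq2 also called 0, and the median was -0.11 against 0.02. There 0 lay wholly above and 2 wholly below the wild type, against 9.57% and 10.7% of all genes. The interaction, the difference of the IL-4 effect between knockout and wild type, was called lower for 1 of 9, against 2.81% of all genes (1.02% higher and 1.78% lower), with a median of -0.72 against 0.01. Averaged over treatments 1 of 9 was higher in the knockout, against 4% of all genes (2.32% higher and 1.68% lower). Averaged over genotypes 2 of 9 rose with IL-4, against 12.9% of all genes (7.03% higher and 5.82% lower). The 2 were Slc3a2 and Slc7a11, the latter tested only because of its IL-4 libraries. With counts this small, 1 transporter more or less decides how a share compares with that of all genes.

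Slc7a11 (chr3:49892526-50443614 in GRCm38, minus strand), the cystine and glutamate exchanger, was nearly silent without IL-4. The wild-type basal libraries held 0 and 4 counts (0 and 0.343 CPM), and the knockout basal libraries held 0 and 1 count (0 and 0.0894 CPM). After IL-4 the wild-type libraries held 41, 31 and 28 counts (3.47, 2.06 and 2.88 CPM), and the knockout libraries held 19, 36 and 22 counts (1.93, 2.76 and 1.76 CPM). Every IL-4 library therefore lay above every basal library in both genotypes, at a level that remained low. Slc7a11 passed the filter on low counts only through the IL-4 groups, so its direction was fixed by that filter and the tests below add only the size and its error.

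Pooled over libraries, 100 counts after IL-4 against 4 at baseline gave a ratio of 15.2 in the wild type, with an exact 95% interval from 5.76 to 56.9. In the knockout, 77 counts against 1 gave a ratio of 44.5, with an interval from 7.75 to 1780. These intervals cover counting error only. The fitted change was 3.91 ± 1.08 on the log2 scale (SE, adjusted p = 0.0441) in the wild type and 5.19 ± 1.30 (adjusted p = 0.0238) in the knockout, values that with so few basal counts depend on the fit. The average over genotypes was 4.55 ± 0.85 (adjusted p = 0.00266) in a comparison where 12.9% of all genes passed. The IL-4 effects of the genotypes differed by 1.29 ± 1.72 (adjusted p = 0.787, 95% interval -2.36 to 4.93), and after IL-4 the knockout differed from the wild type by -0.38 ± 0.74 (adjusted p = 0.865, interval -1.94 to 1.19).

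The single-genotype calls of Slc7a11 rested on single libraries. In the wild type the adjusted p was 0.186 without wild-type basal 1, 0.119, 0.0834 and 0.101 without wild-type IL-4 1, 2 and 3, and 0.0572 and 0.0526 without knockout IL-4 2 and 3. In the knockout it was 0.147 and 0.0934 without knockout basal 1 and 2. The promoter printed above, with its pair of TGATGNAA matches, belongs to this gene. Beside its rise, the summed monocyte and dendritic cell markers were 683 to 831 CPM in the IL-4 libraries and 101 to 237 CPM in the basal libraries. Ccr2 made up most of that sum, at means of 111 and 163 CPM in the wild-type and knockout basal groups and 779 and 690 CPM after IL-4. Their part in the result was not tested.

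Slc3a2 (chr19:8706882-8723369, minus strand), the heavy chain shared by the light chains, followed the same direction on a higher level. It stood at 37.7 and 21.8 CPM in the wild-type basal libraries and at 37.0 and 38.1 CPM in the knockout basal libraries. With IL-4 it stood at 57.0, 57.5 and 45.9 CPM in the wild type and at 54.6, 62.7 and 43.6 CPM in the knockout. No IL-4 library of either genotype was as low as any basal library. The average over genotypes rose by 0.68 ± 0.20 on the log2 scale (1.6-fold, adjusted p = 0.0317). Neither genotype passed alone, with 0.85 ± 0.28 (adjusted p = 0.0827) in the wild type and 0.51 ± 0.27 (adjusted p = 0.280) in the knockout. DESeq2 called the wild-type change (adjusted p = 0.0364), and so did edgeR without wild-type basal 1 (0.0443). The averaged call was lost without knockout basal 1 (adjusted p = 0.101) or 2 (0.0938), knockout IL-4 2 (0.0519), wild-type basal 2 (0.143), or wild-type IL-4 1 (0.0628) or 2 (0.070). Between the genotypes Slc3a2 differed by 0.34 ± 0.30 at baseline (adjusted p = 0.620) and by 0.00 ± 0.24 after IL-4 (adjusted p = 0.999, 95% interval -0.51 to 0.52).

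Slc1a5 (chr7:16781340-16798274, plus strand), the glutamine exchanger ASCT2, was the 1 transporter of the 9 for which the difference in IL-4 response between genotypes passed the test. It measured 11.8 and 13.5 CPM in the wild-type basal libraries and 23.9 and 35.1 CPM in the knockout basal libraries. After IL-4 it measured 19.4, 14.6 and 16.8 CPM in the wild type and 12.6, 11.1 and 9.53 CPM in the knockout. The knockout libraries were all above the wild-type ones at baseline and all below them after IL-4. At baseline the knockout was higher by 1.22 ± 0.31 on the log2 scale (adjusted p = 0.0368). IL-4 lowered Slc1a5 in the knockout by a log2 change of -1.41 ± 0.27 (adjusted p = 0.00501), while in the wild type the change was 0.42 ± 0.28 (adjusted p = 0.433). The interaction was -1.83 ± 0.40 (adjusted p = 0.0193). After IL-4 the genotypes differed by -0.61 ± 0.25, which did not pass (adjusted p = 0.283). The baseline, knockout and interaction values share the knockout basal libraries and are not independent of one another.

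Knockout basal 2, with the highest Slc1a5 level of all libraries, decided all 3 calls. Without it the adjusted p was 0.291 for the baseline difference, 0.113 for the IL-4 effect in the knockout and 0.123 for the interaction. The baseline call was also lost without knockout basal 1 (adjusted p = 0.0523), wild-type basal 1 (0.149) or 2 (0.126) and wild-type IL-4 1 (0.0513) or 3 (0.0546), and with only the groups compared in the fit (0.0612). The interaction was lost without wild-type basal 1 (0.0642) or 2 (0.0501) or wild-type IL-4 1 (0.0573). The same knockout basal libraries had the high B cell marker sums given above, with Cd79a, a part of the B cell receptor, at 150 and 169 CPM against 15.5 and 21.5 CPM in the wild-type basal libraries. Their part in the Slc1a5 result was not tested.

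**Figure D3:**
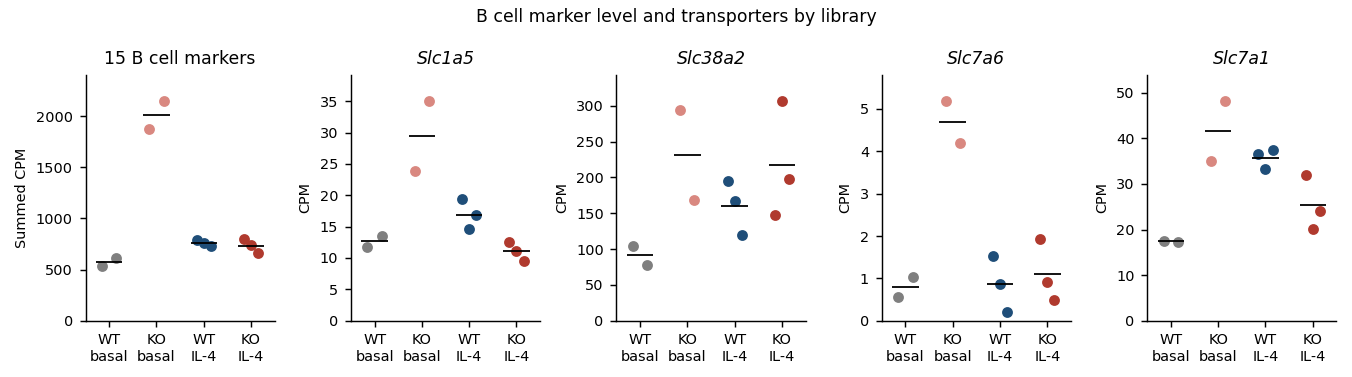
Summed CPM of 15 B cell markers (left) beside the CPM of Slc1a5, Slc38a2, Slc7a6 and Slc7a1, with 1 point per library and a line at the group mean. The knockout basal libraries, at 1880 and 2150 CPM of the markers, are the 2 highest of the 10 libraries for Slc1a5 and Slc7a6, but not for Slc38a2 or Slc7a1.

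The sodium-coupled pair Slc38a1 and Slc38a2 lies on chromosome 15 with 44478 bases and 0 protein-coding genes between the genes (chr15:96571418-96642913 and chr15:96687392-96699730, both on the minus strand). Slc38a1 was level: its lowest library held 184 CPM (wild-type basal 2) and its highest 272 CPM (wild-type basal 1), with all others between. Its log2 differences lay between -0.05 and 0.01 in all 7 comparisons. The 95% intervals ran from -0.56 to 0.46 for the knockout at baseline and from -0.45 to 0.38 after IL-4.

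Slc38a2, by contrast, varied between libraries and groups. It stood at 104 and 78.3 CPM in the wild-type basal libraries, 294 and 168 CPM in the knockout basal libraries, 195, 168 and 120 CPM with IL-4 in the wild type, and 148, 307 and 198 CPM with IL-4 in the knockout. The wild-type basal libraries were the 2 lowest of the 10, and the other 3 groups overlapped. Averaged over treatments, the knockout was higher by 0.89 ± 0.23 on the log2 scale (1.85-fold, adjusted p = 0.0454), where 4% of all genes passed. The difference was 1.34 ± 0.36 at baseline (2.54-fold, adjusted p = 0.0505) and 0.43 ± 0.29 after IL-4 (adjusted p = 0.520), and the interaction was -0.91 ± 0.46 (adjusted p = 0.371). IL-4 in the wild type gave 0.82 ± 0.33 (adjusted p = 0.163), and in the knockout -0.09 ± 0.32 (adjusted p = 0.911).

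Both genotype values of Slc38a2 sat at the threshold. The baseline difference passed with DESeq2 (adjusted p = 0.00745), with library totals in place of TMM factors (0.0326), with DESeq2 size factors (0.0487), with no filter (0.000384), with only the groups compared in the fit (0.0386), and without knockout basal 2 (0.0376) or knockout IL-4 1 (0.0258) or 2 (0.0239). The averaged call was lost without knockout basal 1 (adjusted p = 0.216), knockout IL-4 2 (0.0695) or 3 (0.0575), wild-type basal 1 (0.0698) or 2 (0.183), or wild-type IL-4 1 (0.0646), 2 (0.080) or 3 (0.112). The wild-type IL-4 change passed with no filter (0.0375). At baseline the B cell marker sums, like Slc38a2, were higher in the knockout libraries than in the wild-type ones, and after IL-4 both overlapped between genotypes. Within each basal group, the library with the higher marker sum had the lower Slc38a2 level. The part of these markers was not tested.

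Among the light chains other than Slc7a11, none passed in any comparison. Slc7a5 (chr8:121881150-121907694, minus strand), the exchanger LAT1, was scarce, at 41.3 counts per library on average. It stood at 3.02 and 2.48 CPM in the wild-type basal libraries, 2.49 and 4.20 CPM in the knockout basal libraries, 7.28, 4.32 and 7.10 CPM with IL-4 in the wild type, and 2.74, 2.46 and 0.240 CPM with IL-4 in the knockout. The 3 wild-type IL-4 libraries were the highest of all 10, and knockout IL-4 3, with 3 counts, was far below the rest. After IL-4 the knockout was lower by a log2 difference of -1.78 ± 0.61 (3.44-fold), with an unadjusted p of 0.00996 and an adjusted p of 0.194. Without knockout IL-4 3 the difference was -1.26 (adjusted p = 0.314), and with no filter on low counts it was -1.815 (adjusted p = 0.0213). The interaction of Slc7a5 was -2.07 ± 0.95 (adjusted p = 0.312). Of 11 neutrophil markers 7 were tested, and 3 of them were highest with IL-4 in the wild type too. In the order wild-type basal, knockout basal, wild-type IL-4 and knockout IL-4, S100a9 had means of 12.4, 19.3, 44.4 and 10.8 CPM, S100a8 6.94, 14.6, 22.5 and 7.52 CPM, and Mmp8 0.596, 1.89, 14.2 and 2.45 CPM. With IL-4 in the wild type 3 of the 7 rose and 1 fell, against 3.26% and 2.8% of all genes. The 1 was Csf3r (-1.273 ± 0.245, adjusted p = 0.00651), with means of 280.8, 174, 116.1 and 124.8 CPM in the same order. The sum of all 11 was not highest with IL-4 in the wild type, at 203 to 243 CPM against 256 to 362 CPM in the wild-type basal group. The part of these markers in the Slc7a5 values was not tested.

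Slc7a6 (chr8:106168857-106198706, plus strand), an exchanger of cationic for neutral amino acids, averaged 18.3 counts per library. It measured 0.567 and 1.03 CPM in the wild-type basal libraries, 5.19 and 4.20 CPM in the knockout basal libraries, 1.52, 0.864 and 0.206 CPM with IL-4 in the wild type, and 1.93, 0.922 and 0.481 CPM with IL-4 in the knockout. Both knockout basal libraries exceeded all 8 others. The baseline difference was 2.54 ± 0.97 on the log2 scale (5.8-fold, adjusted p = 0.172) and the IL-4 change in the knockout was -2.09 ± 0.83 (adjusted p = 0.141), and neither passed. Its biological coefficient of variation, 53.5%, was the highest of the 9. The B cell markers were high in these same libraries.

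Slc7a7 and Slc7a8, on chromosome 14 with 304428 bases and 16 protein-coding genes between them, were the steadier light chains. Slc7a7, a partner in the release of cationic amino acids, ranged from 8.56 to 19.3 CPM, and the ranges of all 4 groups overlapped. The gene shares 232 bases of exon (7%) with Oxa1l on the opposite strand, whose reads could not be told apart if counting ignored strand. Slc7a8, the exchanger LAT2, stood at 13.9 and 13.2 CPM in the wild-type basal libraries and at 23.5, 19.95 and 16.9 CPM with IL-4 in the wild type, which did not overlap. That change was 0.57 ± 0.31 on the log2 scale (adjusted p = 0.305). In the knockout Slc7a8 stood at 10.7 and 20.04 CPM at baseline and 18.3, 21.3 and 16.3 CPM with IL-4, and its genotype difference after IL-4 was -0.11 ± 0.27 (adjusted p = 0.890).

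**Figure D4:**
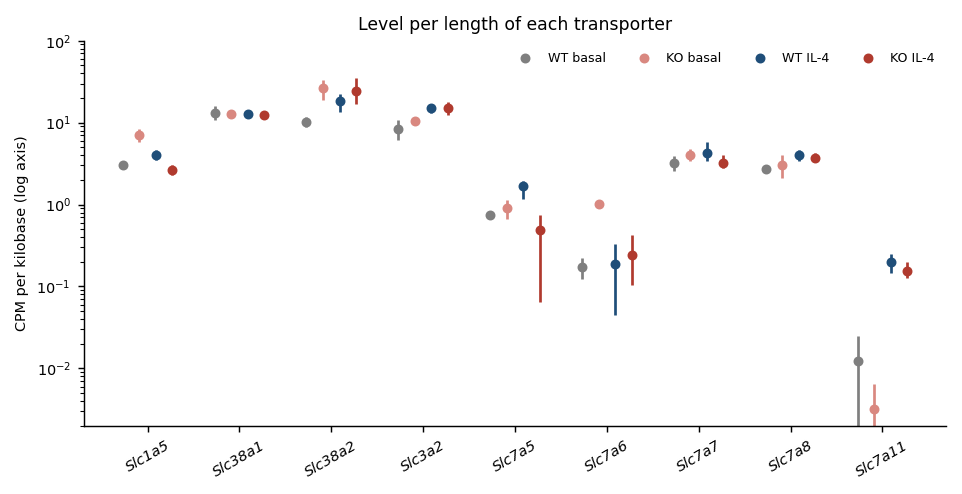
Level of each transporter in CPM per kilobase of merged exons (vertical log axis), with a point for the group mean and a bar from the lowest to the highest library. The means of Slc38a1, Slc38a2 and Slc3a2 lie at 8.42 or above in all groups and those of Slc7a11 at 0.201 or below, and bars that include a library at 0 run to the bottom of the axis.

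To compare genes with one another, CPM were divided by the kilobases of exon of each gene. On this scale the levels of Slc38a1, Slc38a2 and Slc3a2 led in every group. In the wild-type basal group they were 13.2, 10.3 and 8.42 CPM per kilobase, and neighbours in this order overlapped. Slc7a7 (3.23), Slc1a5 (3.04) and Slc7a8 (2.70) formed a middle level, in which Slc7a7 and Slc1a5 overlapped. Slc7a5 (0.742), Slc7a6 (0.174) and Slc7a11 (0.0123) were the lowest.

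The order shifted between groups. In the knockout basal group Slc38a2 led with 26.2 CPM per kilobase, above every library of Slc38a1 with 12.8 and Slc3a2 with 10.6, and Slc1a5 (7.06) exceeded Slc7a7 (4.08) in every library. In the wild-type IL-4 group Slc38a2 (18.2), Slc3a2 (15.2) and Slc38a1 (12.8) came first, and Slc7a7 (4.23), Slc1a5 (4.06) and Slc7a8 (4.02) overlapped in succession. In the knockout IL-4 group Slc1a5 (2.66) ranked below Slc7a8 (3.72) and Slc7a7 (3.26), and overlapped with Slc7a7. The choice of length matters for Slc38a1, whose merged exons span 17236 bases while its median coding transcript has 5074.5. With the latter length, an alternative chosen after seeing the data, Slc38a1 led in the wild-type groups, at 45.0 CPM per kilobase at baseline and 43.6 after IL-4. In the knockout basal group Slc38a2 (49.6) and Slc38a1 (43.6) then overlapped.

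**Figure D5:**
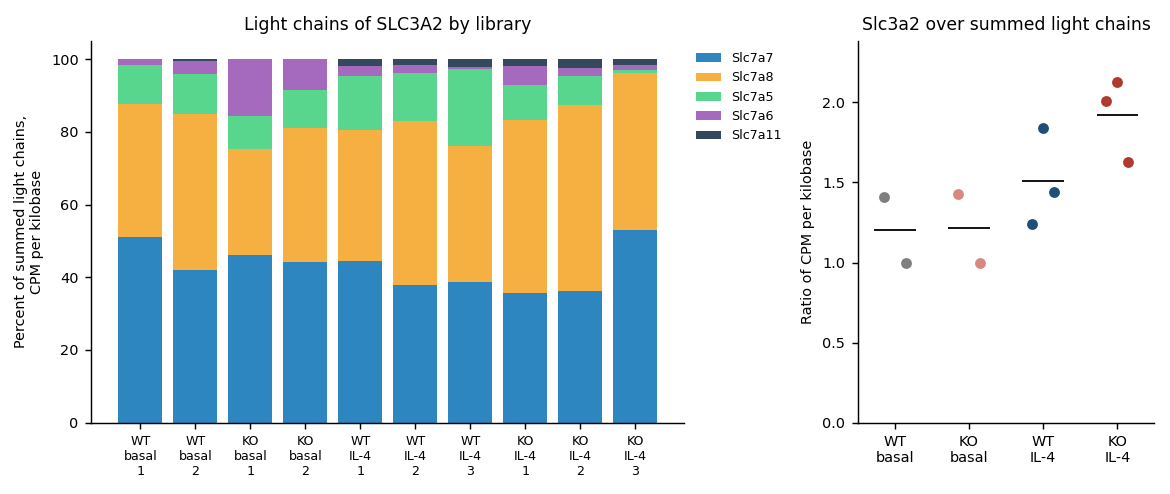
Left, share of each light chain in the summed CPM per kilobase of the 5 light chains (percent, stacked bars, 1 per library). Right, ratio of Slc3a2 to that sum, 1 point per library with a line at the group mean. Slc7a7 and Slc7a8 take most of every bar, and the mean ratio is 1.20 and 1.21 in the basal groups and 1.51 and 1.92 in the IL-4 groups.

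The light chains compete for the same heavy chain, and their relative transcript levels were described without a test. Slc7a7 made up 40.4% to 46.6% and Slc7a8 33.0% to 47.2% of the summed light-chain level in the group means. Slc7a5 took 10.8% in the wild-type basal group (10.7% to 10.9%), 9.82% in the knockout basal group (9.14% to 10.5%), 16.5% with IL-4 in the wild type (13.2% to 21.2%) and 6.14% with IL-4 in the knockout (0.856% to 9.59%). Its share was thus higher in each wild-type IL-4 library than in any other. The Slc7a6 share was 12.0% in the knockout basal group (8.49% to 15.5%) and at most 5.48% in any other library. Slc7a11 reached 1.96% and 1.95% with IL-4 in the wild type and the knockout. The ratio of Slc3a2 to the summed light chains was 1.20 (1 to 1.41) and 1.21 (0.996 to 1.43) in the wild-type and knockout basal groups. It was 1.51 (1.24 to 1.84) and 1.92 (1.63 to 2.13) after IL-4, where only the knockout libraries lay clear of their basal counterparts. These values used merged exons. With the median coding transcript the mean ratios were 1.71 and 1.73 at baseline and 2.16 and 2.72 after IL-4. The leading light chain of the knockout IL-4 group changed too. It was Slc7a8 with merged exons (47.2%, Slc7a7 41.7%) and Slc7a7 with the median coding transcript (46.9%, Slc7a8 42.1%).

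Beyond these genes, 43 other amino acid transporters were in the table and 17 had enough reads. Slc7a1 (CAT1), which imports arginine and lysine, behaved in levels much as Slc1a5 did at baseline: 17.4 ± 0.187 CPM (SD, n = 2) in the wild type and 41.6 ± 9.39 (SD, n = 2) in the knockout. After IL-4 it stood at 35.7 ± 2.18 (SD, n = 3) and 25.3 ± 6.03 CPM (SD, n = 3). At baseline 2 of 17 rose in the knockout and 0 fell, against 4.14% of all genes called, namely Slc7a1 by 1.25 ± 0.29 (adjusted p = 0.0243) and the lysosomal arginine sensor Slc38a9 by 1.25 ± 0.30 (adjusted p = 0.0257). With IL-4 in the wild type 3 rose and 0 fell, against 6.06% of all genes called. These were Slc7a1 by 1.03 ± 0.27 (adjusted p = 0.0347), the taurine transporter Slc6a6 by 0.93 ± 0.26 (adjusted p = 0.0471) and Slc36a2, with 87 counts against 0. With a floor of 3 counts in place of the 0 over the basal group, the ratio of Slc36a2 was 17.7, a value set by that floor. The exact interval of its count ratio, of the kind given for Slc7a11, had a lower limit of 14.1 and covers counting error only. The fitted log2 change was 7.76 ± 1.90 (adjusted p = 0.0264), a size that with 0 basal counts depends on the fit. Slc36a2 too passed the filter only through the IL-4 libraries. With IL-4 in the knockout 2 rose and 1 fell, against 7.6% of all genes called: the cationic transporter Slc7a2 by 1.94 ± 0.43 (adjusted p = 0.0151), Slc38a6 by 0.89 ± 0.26 (adjusted p = 0.0466) and the lysosomal histidine and peptide carrier Slc15a4 by -1.39 ± 0.35 (adjusted p = 0.0229). After IL-4 the means of Slc7a2 were 187 CPM in the wild type and 215 CPM in the knockout. Its wild-type change, from basal libraries at 41.7 and 171 CPM, was 0.81 ± 0.41 (adjusted p = 0.279). Its interaction was 1.13 ± 0.57 (adjusted p = 0.372). The interaction was called for 1 of 17, Slc7a1, at -1.75 ± 0.38 (adjusted p = 0.0172), where 2.81% of all genes were called. Between the genotypes after IL-4 edgeR called 0 of 17, where 0.827% of all genes were called.

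The medians of the 17 were 0.43 at baseline between genotypes, 0.67 with IL-4 in the wild type, 0.17 in the knockout and -0.49 for the interaction, each on the log2 scale. Several of these calls depended on single libraries. Slc7a1 at baseline was lost without knockout basal 2 (adjusted p = 0.201), wild-type basal 1 (0.0819) or 2 (0.126), and its interaction without knockout basal 2 (0.106) or wild-type basal 2 (0.0598). Slc38a9 was lost without knockout basal 1 (0.106) or 2 (0.119) or wild-type basal 1 (0.0635) or 2 (0.168). With IL-4 in the wild type, Slc7a1 was lost without wild-type basal 1 (0.131) or 2 (0.167) or wild-type IL-4 1 (0.0855), 2 (0.069) or 3 (0.0963), and Slc36a2 without the same libraries (0.109, 0.135, 0.0613, 0.069 and 0.0524). Slc6a6 was lost without these 5 (0.165, 0.168, 0.118, 0.064 and 0.135) and without knockout basal 1 (0.0542) or 2 (0.054). In the knockout, Slc7a2 was lost without knockout basal 1 (0.107) or 2 (0.158), and Slc15a4 without knockout basal 1 (0.212) or knockout IL-4 1 (0.0548) or 3 (0.0694). Slc38a6 was lost without knockout basal 1 (0.0707) or 2 (0.366), knockout IL-4 1 (0.0756), 2 (0.0556) or 3 (0.0886), or wild-type IL-4 1 (0.0559), 2 (0.0648) or 3 (0.0675). The B cell marker sums were high in the knockout basal libraries on which the values of Slc7a1 and Slc38a9 rest, and their part was not tested.

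Pathways that read out amino acid supply were taken as lists. Of the 20 tested members of 28 in a list of ATF4 targets and amino acid response genes, edgeR called 0 between the genotypes after IL-4, where 0.827% of all genes were called. At baseline, where 4.14% of all genes were called, 1 fell in the knockout, the stress factor Ddit3 (-1.12 ± 0.30, adjusted p = 0.0463). With IL-4 in the wild type, against 6.06% of all genes, 2 fell, the stress-induced cofactor Nupr1 (-1.83 ± 0.26, adjusted p = 0.000793) and Ddit3 (-0.996 ± 0.26, adjusted p = 0.0357). In the knockout with IL-4, against 7.6% of all genes, Nupr1 fell (-1.30 ± 0.26, adjusted p = 0.00576) and Psat1, of serine synthesis, rose (1.58 ± 0.44, adjusted p = 0.0381). The wild-type Nupr1 call held without each library in turn, and the knockout one was lost without knockout basal 1 (adjusted p = 0.0695). Ddit3 at baseline was lost without any basal library (0.0855 to 0.301) or any wild-type IL-4 library (0.0614 to 0.0651), and with IL-4 in the wild type without any wild-type library (0.0583 to 0.196). Psat1 was lost without knockout basal 1 (0.0998) or 2 (0.280), knockout IL-4 1 (0.0953) or 3 (0.0827) or wild-type IL-4 2 (0.0507). Averaged over genotypes, against 12.9% of all genes, Nupr1 fell (-1.57 ± 0.18, adjusted p = 5.84e-05) and Ppp1r15a, which restores translation after stress, rose (0.85 ± 0.21, adjusted p = 0.0149). Ppp1r15a was lost without knockout basal 2 (0.0716) or wild-type basal 2 (0.0715).

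Of 33 tested members of 34 in a list of mTORC1 amino acid sensing, 1 was called at baseline and 1 with IL-4 in the wild type, against 4.14% and 6.06% of all genes. Castor2 rose in the knockout at baseline (1.33 ± 0.34, adjusted p = 0.0392) and the Ragulator subunit Lamtor2 fell with IL-4 in the wild type (-1.21 ± 0.27, adjusted p = 0.0154). Castor2 was lost without knockout basal 1 (0.319), wild-type basal 1 (0.0621) or 2 (0.254), or wild-type IL-4 1 (0.0519) or 3 (0.0573), and Lamtor2 without wild-type basal 1 (0.0715) or 2 (0.0651) or wild-type IL-4 2 (0.0657). The list's medians were 0.12 and -0.03 in those comparisons. Of 11 tested mitochondrial amino acid carriers among 13, the aspartate and glutamate carrier Slc25a13 alone passed, with IL-4 in the knockout (1.03 ± 0.30, adjusted p = 0.0470, against 7.6% of all genes called), and it did not pass without either knockout basal library (0.113 and 0.327), any knockout IL-4 library (0.0563 to 0.0966), wild-type basal 2 (0.0501) or wild-type IL-4 1 (0.0657). Averaged over genotypes Lamtor2 fell by a log2 change of -0.93 ± 0.19 (adjusted p = 0.00541).

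Of 19 tested NRF2 targets and glutathione synthesis genes among 21, edgeR called 0 in the 5 comparisons that are not averages. Their medians were -0.18 between the genotypes at baseline, -0.20 after IL-4, 0.11 with IL-4 in the wild type and 0.15 with IL-4 in the knockout. Averaged over treatments, where 4% of all genes were called, 2 of 19 were lower in the knockout, the malic enzyme Me1 (-2.08 ± 0.50, adjusted p = 0.0281) and thioredoxin Txn1 (-0.585 ± 0.15, adjusted p = 0.0397). Averaged over genotypes, where 12.9% of all genes were called, 1 of 19 rose with IL-4, the glutathione reductase Gsr (0.54 ± 0.16, adjusted p = 0.0399). Me1 was lost without knockout basal 1 (0.122), wild-type basal 1 (0.0504) or 2 (0.0581) or wild-type IL-4 1 (0.0939). Txn1 was lost without knockout basal 1 (0.110) or 2 (0.151), knockout IL-4 3 (0.0651), wild-type basal 2 (0.145) or wild-type IL-4 1 (0.0959) or 3 (0.0803). Gsr was lost without knockout basal 1 (0.142) or 2 (0.090), knockout IL-4 3 (0.072), wild-type basal 1 (0.0631) or 2 (0.129), or wild-type IL-4 1 (0.0796), 2 (0.0577) or 3 (0.0817).

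The genes whose pattern over the 10 libraries was most like that of a transporter were those with the smallest root mean square difference of centred log2 CPM. For Slc7a11 they were Ear2 (0.46), Mgl2 (0.51) and Cdca3 (0.54), against 1.71 for the variation of Slc7a11 itself. For Slc1a5 (0.53) they were Ints8 and Abhd17b (both 0.19) and S100a6 (0.20). For Slc38a2 (0.59) they were Slc12a9 (0.21), Tnip1 (0.23) and Atf2 (0.24), and for Slc3a2 (0.43) they were Yipf3 (0.11), Eif4ebp2 and Fbh1 (both 0.15).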

How the data were processed

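The deposited values were raw read counts per gene and library. Per the submitters' processing notes, STAR and HTSeq were used with the mm10 build, while versions, annotation and strand setting are not given in the sources used here. The table held 22165 genes, of which 420 had no symbol in GENCODE M21 (GRCm38), to which identifiers were matched, and 7409 had 0 counts in all 10 libraries. Library totals ran from 8762403 to 15024073, which limits genes of few counts.

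The filter filterByExpr, with a minimum count of 10 and a minimum total of 15, left 11614 genes, scaled by TMM. All were fitted with edgeR 4.0.16 under R 4.3.3 in 1 quasi-likelihood model of 4 group means (6 residual degrees of freedom). The 7 contrasts were tested two-sided, with Benjamini-Hochberg adjustment over all genes tested and a threshold of 0.05. ± is the standard error of log2 values and otherwise the SD, and "rose" or "fell" marks genes that passed. The steps were tested on simulated data. Of true 2-fold changes they recovered 31% for genotype after IL-4 and 12.5% at baseline. For IL-4 they recovered 25% of such changes in the wild type and 15.4% in the knockout. Of true 4-fold changes they recovered 75% to 89.2%. A gene that was not called may therefore still differ. Alternatives were DESeq2 1.42.0, other scaling, no filter, a replicate block, fits of only the groups compared, and leaving out each library. The comparisons with the same controls are given side by side.

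All 9 transporters are described. The gene deleted in the knockout is not reported here. Other genes were drawn from those given by a rule, and not every gene it gave is named. The rule took, from each list, up to 4 called genes of smallest p per comparison. It also took the 3 most similar patterns for each transporter that passed a test, and marker genes for cell composition. Members and lists were chosen with earlier results of these data known. Motifs were searched on both strands.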

Additional observations from a re-analysis of the deposited data

Results flagged for a closer look

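Among the amino acid transporters named here, the IL-4 effect of 2 differed between the genotypes by the interaction test of edgeR, adjusted over all genes tested. Genes of the other lists were not flagged here, and some of them, such as Clec10a and Cd79a, also passed that test. For Slc1a5 the difference in log2 effect, knockout minus wild type, was -1.83 ± 0.40 (adjusted p = 0.0193). For Slc7a1 it was -1.75 ± 0.38 (adjusted p = 0.0172). Groups held 2 or 3 libraries, too few to look for outlying samples.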

How the results depend on the processing

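Low counts limited Slc7a11, Slc7a6 and Slc7a5, which averaged 18.2, 18.3 and 41.3 counts per library, and with 2 basal libraries a group most calls depended on single libraries, as given beside them. The labels do not say what a replicate number marks. Over 13 same-numbered pairs the correlation of deviations from the group mean ran from -0.11 to 0.06 and 0 exceeded 0.1. In groups of 2 libraries the deviations mirror each other, so these pairs are not independent and do not settle whether numbers mark pairs. With a replicate block, genes called numbered 554 for IL-4 in the knockout and 836 averaged over genotypes, and transporters called numbered 0 for the baseline genotype difference, 0 for IL-4 in the wild type, 1 for IL-4 in the knockout and 0 for the averaged genotype difference.

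With no filter, genes called numbered 505 for genotype after IL-4, 1034 for genotype at baseline, 1209 for IL-4 in the wild type, 1423 for IL-4 in the knockout, 819 for the interaction and 934 for averaged genotype, against 96, 481, 704, 883, 326 and 464. With DESeq2 they numbered 385, 848, 1126, 594 and 809 for the same comparisons except IL-4 in the knockout. Scaling with library totals moved the split of calls from 303 higher and 178 lower to 421 and 110 for genotype at baseline, from 379 and 325 to 481 and 256 for IL-4 in the wild type, from 475 and 408 to 386 and 532 for IL-4 in the knockout, from 119 and 207 to 92 and 275 for the interaction, and from 269 and 195 to 356 and 144 for averaged genotype. Without 1 library, genes called ranged from 21 to 129 for genotype after IL-4, 208 to 550 at baseline, 302 to 764 for IL-4 in the wild type, 327 to 931 in the knockout, 182 to 397 for the interaction, 197 to 441 for averaged genotype and 841 to 1560 for averaged IL-4.

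Transporters called with no filter numbered 1 for genotype after IL-4, 2 at baseline and 2 for IL-4 in the wild type. They numbered 2 at baseline with library totals, with DESeq2 size factors and with DESeq2, which also called 2 for IL-4 in the wild type. Without 1 library they ranged from 0 to 2 at baseline, 0 to 1 for IL-4 in the wild type, 0 to 2 in the knockout, 0 to 1 for the interaction, 0 to 1 for averaged genotype and 1 to 2 for averaged IL-4.

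Changes of sign occurred only among log2 values that had not passed, and the cause was not tested. Of the alternatives for the transporters' log2 values, 869 kept direction and side of the threshold, 61 changed sign, 38 lost a call and 12 gained one. The 869 include values that passed in neither fit. With library totals the values were -0.021 for Slc3a2 after IL-4, and for Slc38a1 0.091 at baseline, 0.014 with IL-4 in the wild type, -0.155 for the interaction and 0.013 for averaged genotype, with 0.037 for Slc7a7 in the last. With no filter Slc3a2 after IL-4 was -0.023. With the block, Slc38a2 with IL-4 in the knockout was 0.075, the Slc38a1 interaction -0.016 and Slc7a7 averaged genotype 0.009. Leaving out 1 library, Slc3a2 ranged from -0.124 to 0.132 after IL-4, -0.009 to 0.797 at baseline, -0.801 to 0.005 for the interaction and -0.006 to 0.397 for averaged genotype. Slc38a1 ranged from -0.133 to 0.044 after IL-4, -0.305 to 0.273 at baseline, -0.304 to 0.273 and -0.144 to 0.084 with IL-4 in the wild type and the knockout, -0.318 to 0.261 for the interaction, and -0.174 to 0.114 for both averages. Slc7a6 ranged from -0.320 to 0.957 after IL-4 and -0.509 to 0.616 with IL-4 in the wild type. Slc7a8 ranged from -0.228 to 0.015 after IL-4, -0.340 to 0.566 at baseline, -0.104 to 0.801 with IL-4 in the knockout, -0.678 to 0.227 for the interaction and -0.226 to 0.227 for averaged genotype. Slc7a5 ranged from -0.146 to 0.611 at baseline and -0.065 to 0.401 for averaged IL-4. Slc7a11 ranged from -4.106 to 2.441 at baseline, -2.823 to 3.730 for the interaction and -2.241 to 1.029 for averaged genotype. Slc38a2 with IL-4 in the knockout ranged from -0.435 to 0.372, and Slc7a7 from -0.155 to 0.144 for averaged genotype and -0.117 to 0.194 for averaged IL-4.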

Other observations

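Averaged over genotypes, IL-4 raised 4 of the 17 other amino acid transporters and lowered 0, where 12.9% of all genes were called (7.03% higher and 5.82% lower). Slc7a2 rose by 1.38 ± 0.30 on the log2 scale (SE, adjusted p = 0.00851), Slc38a6 by 0.68 ± 0.18 (adjusted p = 0.0232), the branched-chain amino acid transporter Slc43a2 by 0.56 ± 0.15 (adjusted p = 0.0235), and Slc36a2 also passed (adjusted p = 0.0113), having entered the test only through its IL-4 libraries. Slc7a2 was lost without knockout basal 2 (adjusted p = 0.0525). Slc38a6 was lost without knockout basal 2 (0.123), wild-type basal 1 (0.0996) or wild-type IL-4 2 (0.0542) or 3 (0.0575). Slc43a2 was lost without knockout basal 1 (0.0895) or 2 (0.0723), wild-type basal 2 (0.0871) or wild-type IL-4 2 (0.0528) or 3 (0.0571). Averaged over treatments, Slc38a9 was 0.74 ± 0.19 higher in the knockout (adjusted p = 0.0399, against 4% of all genes called), a call that held in 2 of 10 fits that left out 1 library each. It was lost without knockout basal 1 (0.105) or 2 (0.117), knockout IL-4 1 (0.0534) or 2 (0.0635), wild-type basal 1 (0.0646) or 2 (0.141) or wild-type IL-4 2 (0.0618) or 3 (0.0993).

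Among enzymes of glutamine and glutamate, 18 of 21 were tested. Gfpt1, which uses glutamine to make hexosamines, rose with IL-4 averaged over genotypes by 0.72 ± 0.18 (adjusted p = 0.0143), a call lost without knockout basal 1 (0.0839). Of the alternative activation genes, 17 of 19 were tested. Between the genotypes after IL-4, 3 were lower and 2 higher in the knockout, against 0.827% of all genes called. Chil3 (-2.09 ± 0.21, adjusted p = 0.000118) and Clec10a (-1.70 ± 0.22, adjusted p = 0.00245) were lower, calls that held without each library in turn. Tgm2 was also lower (-2.375 ± 0.391, adjusted p = 0.00793), a call kept in 9 of 10 fits that left out 1 library each. Retnla was higher in the knockout after IL-4 by 0.94 ± 0.20 (adjusted p = 0.0334), a call lost without knockout IL-4 1 (0.0631) or 2 (0.0783) or wild-type IL-4 1 (0.137), 2 (0.0599) or 3 (0.185).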
